A study of Mus musculus with 21 samples.

Results

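The genes described here encode splicing factors and were chosen by symbol alone: the SR proteins (Srsf followed by a number), the heterogeneous nuclear ribonucleoproteins or hnRNPs (Hnrnp followed by letters or digits), the paraspeckle proteins Sfpq, Nono and Pspc1, and the neuronal and PTB-type regulators Rbfox1 to Rbfox3, Nova1, Nova2 and Ptbp1 to Ptbp3. The rule found 42 of the 35266 genes in the count table, comprising 11 SR protein genes, 20 hnRNP genes, 3 paraspeckle genes and 8 Rbfox, Nova and Ptbp genes. All 42 passed the filter on low counts (more than 1 CPM, the read count of a gene scaled to the size of its library, in at least 3 libraries), as did 16513 genes in all. The lowest count of any of them in any library was 16, for Srsf4.

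RNA was sequenced from fluorescent neurons of the hypothalamic arcuate nucleus, picked manually, of male mice on a C57BL/6J background, 1 mouse per library. AGRP neurons came from the NPY-hrGFP strain, in which the fluorescent protein follows Npy, and POMC neurons from the Pomc-GFP strain, so the 2 neuron types always came from different transgenic strains. The 4 groups were AGRP fed (n = 5 mice), AGRP food-deprived (FD, n = 6), POMC fed (n = 5) and POMC FD (n = 5). All mice were housed singly for the last 24 h, FD mice with water only and fed mice with free access to chow, and were 46 to 56 days old. Each library held the RNA of 44 to 214 cells, freed by pronase digestion for 1 h and then amplified, and all groups share these steps.

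Splicing removes introns from pre-mRNA, and the choice of exons depends on proteins bound to the transcript. SR proteins mostly bind exonic enhancers and promote exon inclusion, while many hnRNPs, including the PTB proteins, bind silencers and promote skipping. Sfpq, Nono and Pspc1 form the DBHS family, whose dimers bind RNA and DNA, build nuclear paraspeckles around the Neat1 transcript and can act as transcriptional corepressors. The Rbfox and Nova proteins bind short RNA motifs and set neuron-specific exon use.

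The libraries held 9822298 to 37663979 counts on genes, so that the floor of 3 counts was 0.0797 to 0.305 CPM. Reads outside annotated exons were 25.6 to 49.3% of the counted reads in AGRP FD libraries and 37.3 to 55.3% in AGRP fed libraries. The TMM scaling factors were 0.857 to 1.03 in AGRP FD libraries and 1.04 to 1.11 in AGRP fed libraries, with no overlap. Agrp was at 2050 to 19900 TPM (a relative abundance corrected for transcript length) in AGRP libraries and at 5.27 to 69.3 TPM in POMC libraries, while Pomc was at 7160 to 23100 TPM in POMC libraries and 7.35 to 69.7 TPM in AGRP libraries. The summed level of 16 astrocyte, oligodendrocyte, microglial and endothelial markers was 25.3 to 48 TPM in AGRP FD, 40.3 to 53.6 in AGRP fed, 25.5 to 63 in POMC FD and 31 to 42.2 in POMC fed libraries. C1qa was at 0 in every library, Itgam and Cldn5 were at 0 in every library outside AGRP FD, and Cx3cr1 was at 0 in every AGRP FD library. The astrocyte marker Aldh1l1 was higher in AGRP FD, at 0.217 to 5.15 TPM, than in AGRP fed libraries, at 0 to 0.045 TPM (edgeR q = 0.0284). The other astrocyte markers did not pass (edgeR q of 0.897 for Gfap, 0.928 for Aqp4 and 0.931 for Slc1a3). Their means in AGRP FD and AGRP fed libraries were 1.03 and 1.64 TPM for Gfap, 0.518 and 0.885 for Aqp4, and 2.32 and 2.14 for Slc1a3. The part of these differences in the results below was not tested. In such pooled samples, fewer cells expressing a gene and less of its RNA per cell cannot be told apart.

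The sequence just upstream of 4 genes is shown because their change with food deprivation was more positive in AGRP than in POMC neurons. All 4 were called higher in AGRP neurons and none was called in POMC neurons, by the tests given further on. The windows are the 250 bases before the RefSeq start, from mouse build GRCm38.p6, written 5′ to 3′ on the gene's own strand. Capitals mark CCAAT on either strand (ATTGG is its complement), a motif looked for after the Sfpq window had been seen. They lie at chr4:127021051-127021300 on the plus strand for Sfpq and, on the minus strand, at chr11:116853095-116853344 for Srsf2, chr17:80207306-80207555 for Srsf7 and chr11:51606882-51607131 for Hnrnpab.
Sfpq: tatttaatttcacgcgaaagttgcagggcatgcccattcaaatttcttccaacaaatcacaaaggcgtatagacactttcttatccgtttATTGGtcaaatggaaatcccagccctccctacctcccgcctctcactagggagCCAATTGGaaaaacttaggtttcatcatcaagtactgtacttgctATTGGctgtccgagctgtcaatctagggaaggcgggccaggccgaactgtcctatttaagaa
Srsf2: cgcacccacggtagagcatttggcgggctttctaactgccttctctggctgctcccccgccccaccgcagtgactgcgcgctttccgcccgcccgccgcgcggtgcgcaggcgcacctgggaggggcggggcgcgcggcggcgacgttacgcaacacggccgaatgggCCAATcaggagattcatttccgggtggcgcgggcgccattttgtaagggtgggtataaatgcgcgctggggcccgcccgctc
Srsf7: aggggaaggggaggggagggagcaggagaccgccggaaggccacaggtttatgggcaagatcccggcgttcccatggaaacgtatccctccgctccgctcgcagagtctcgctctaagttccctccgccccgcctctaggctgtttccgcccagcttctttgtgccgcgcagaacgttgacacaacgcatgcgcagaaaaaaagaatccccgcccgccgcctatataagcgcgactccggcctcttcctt
Hnrnpab: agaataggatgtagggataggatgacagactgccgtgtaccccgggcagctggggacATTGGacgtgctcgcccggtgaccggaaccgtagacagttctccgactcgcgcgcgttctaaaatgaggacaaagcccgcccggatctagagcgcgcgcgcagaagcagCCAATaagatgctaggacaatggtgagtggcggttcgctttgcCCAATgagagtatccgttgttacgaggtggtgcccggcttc

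The Sfpq window held 4 matches to CCAAT, of which 2 overlap in the run CCAATTGG, the Hnrnpab window held 3, the Srsf2 window 1 and the Srsf7 window 0. Of 32851 RefSeq promoter windows of the same length in the mouse genome, 33.8% held at least 1 match, 2.79% at least 3 and 0.84% at least 4. As CCAAT was chosen from the Sfpq window, these shares are no test of that window. RefSeq promoters of 300 bases, which run on past the start, were matched for 38 of the 42 genes and gave 51 windows. CCAAT lay in 26 of the 51 (51%) against 37.4% of all promoters. The E-box CACGTG lay in 6 of these 51 (11.8%) against 7.15% of all promoters, in Hnrnpa3, Hnrnpd, Hnrnpf, Hnrnph2, Hnrnpm and Ptbp1, and in none of the 4 genes shown. The cAMP response element TGACGTCA lay in 0 of 51 against 1.79% of all promoters, and the AP-1 site TGANTCA in 1 of 51 (1.96%), that of Hnrnpa1, against 7.81%. Median GC content was 65% in the 51 windows and 52.7% in all. These are matches to letters on either strand and not sites of binding.

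Levels of different genes were compared in TPM. Srsf5, an SR protein, had the highest mean over all libraries at 955 TPM, followed by Srsf2 at 640 TPM, a regulator that also acts in transcription elongation. Srsf3, the smallest of the classical SR proteins, was at 224 TPM. Among hnRNPs, Hnrnpa2b1, which also sorts RNA for transport, averaged 593 TPM, Hnrnph1, which binds G-rich RNA, 579 TPM, and Hnrnpk, which binds C-rich RNA, 409 TPM. The paraspeckle genes averaged 211 TPM for Nono, 162 TPM for Sfpq and 72.9 TPM for Pspc1, although in AGRP FD libraries alone the mean of Sfpq (257 TPM) was above that of Nono (230 TPM). Single AGRP FD libraries were split. Sfpq was above Nono in replicates 4, 5 and 6 (293, 380 and 248 against 180, 191 and 171 TPM). It was below Nono in replicates 1, 2 and 3 (161, 219 and 237 against 254, 326 and 257 TPM). Rbfox2 led the last group at 164 TPM, followed by Ptbp2, the neuronal form of PTB, at 137 TPM and Rbfox1 at 53.9 TPM. Group means of Rbfox1 ran from 15.5 TPM in AGRP FD to 105 TPM in POMC FD libraries, and in AGRP FD libraries it was below Ptbp1 (53.4 TPM) and Ptbp3 (41.4 TPM). The lowest means were 11.5 TPM for Srsf4 and 10.8 TPM for Hnrnpf. Counting ignored strand, and 67.9% of the exonic bases of Srsf4 and 24.8% of those of Hnrnpf are shared with other genes, so their levels are uncertain. The same holds for Nova2 (31.7%), Hnrnpm (28.6%), Ptbp1 (26.4%) and Hnrnpab (13.1%, with Phykpl on the other strand), while Sfpq, Srsf2, Srsf7, Pspc1, Hnrnpdl, Nova1 and the Rbfox genes share 0%.

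**Figure D1:**
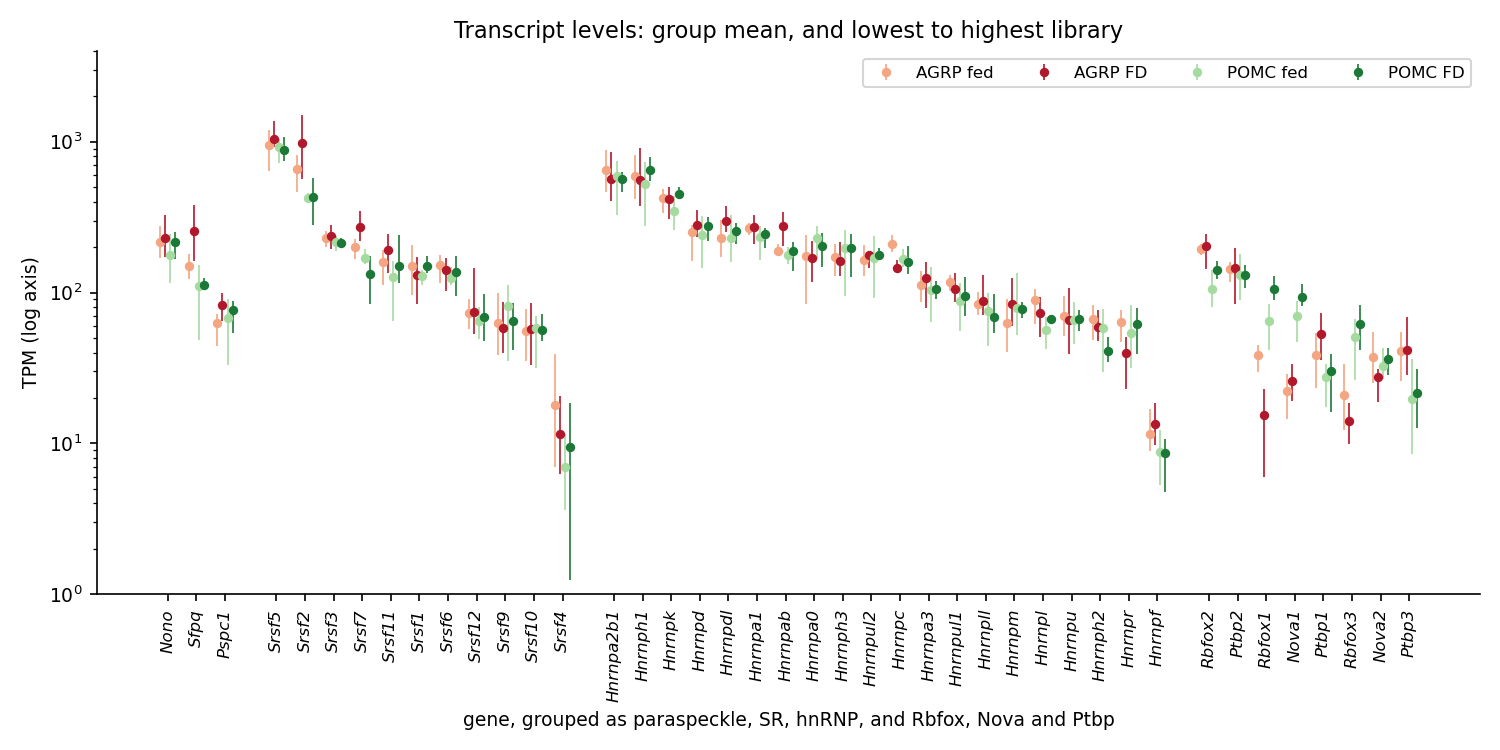
Level of each of the 42 genes in TPM on a log axis. Points are group means, and lines run from the lowest to the highest library of a group (n = 5, or 6 for AGRP FD). Srsf5 and Srsf2 stand highest, Srsf4 and Hnrnpf lowest, and the 4 groups separate most for Rbfox1.

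The first comparison asked which splicing factors changed in AGRP neurons with food deprivation. Of the 42 genes, 6 were higher and 1 was lower in AGRP FD than in AGRP fed neurons by edgeR's quasi-likelihood test with a Benjamini-Hochberg adjusted p (q-value) under 0.05. These are 14.3% and 2.38% of the genes, where 5.87% and 4.43% of all 16513 tested genes were called higher and lower. Among the 9793 genes at least as abundant as the least abundant of the 42, the shares were 9.19% higher and 5.73% lower. The genes called higher were Sfpq, Pspc1, Srsf2, Srsf7, Hnrnpab and Hnrnpdl, and the gene called lower was Rbfox1. With a fold change above 2 and a mean above 20 CPM also required, Sfpq and Rbfox1 were left. The fitted change was positive for 35 of the 42 genes (83.3%, against 48.5% of all genes), with a median log2 fold change of 0.28 against -0.02 over all genes and 0.07 over the abundant ones.

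Sfpq, which also represses transcription at clock gene promoters, lies on chromosome 4 at 127021323 to 127031236 (mm10). It was at 170.1, 129, 153, 136 and 148 normalized CPM in the 5 AGRP fed libraries, and the 6 AGRP FD libraries had a lowest value of 166, a median of 275 and a highest of 442 CPM. All FD libraries but replicate 1 exceeded every fed library. The mean was 305 ± 99.7 CPM (SD, n = 6) in FD and 147 ± 15.9 CPM (n = 5) in fed neurons, a 2.07-fold difference (log2 fold change 1.05 ± 0.21 SE, edgeR q = 0.000958). In POMC neurons Sfpq was at 62.9, 122, 139, 128 and 158 CPM in fed libraries and at 119, 116, 130.1, 109.7 and 109.9 CPM in FD libraries. The FD values fell within the fed range (log2 fold change -0.06 ± 0.21, edgeR q = 0.956).

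Pspc1, a partner of Sfpq in paraspeckles, was at 60.9, 49.9, 69.2, 74.3 and 77.3 CPM in AGRP fed libraries and at 80.1 to 135 CPM in AGRP FD libraries, with a median of 98.8. The groups did not overlap in normalized CPM but did in TPM (65.2 to 100 in FD and 44 to 72.5 in fed libraries). Overlap was not counted over all tested genes, here or for the genes below. The log2 fold change of Pspc1 was 0.66 ± 0.21 (edgeR q = 0.0388). That call was lost without any 1 of 7 libraries (AGRP fed replicates 1 to 4 and AGRP FD replicates 2, 4 and 5), with a q-value of up to 0.118. Nono, the remaining DBHS gene, was at 128, 133, 140.4, 183 and 202 CPM in AGRP fed and 139.6 to 305 CPM in AGRP FD libraries, with a median of 187. Its groups overlapped and the difference did not pass the test (log2 fold change 0.35 ± 0.20, edgeR q = 0.30). In POMC neurons the log2 fold changes were 0.08 for Pspc1 (edgeR q = 0.939) and 0.21 for Nono (edgeR q = 0.744), and these changed sign to -0.89 and -0.70 when libraries were scaled by ERCC spike-in RNA. Sfpq made up 32.8 to 57.9% of the summed TPM of the 3 genes in AGRP FD libraries and 29.9 to 42.6% in AGRP fed libraries.

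Among SR proteins, Srsf2 was at 389, 283, 351, 393 and 466 CPM in AGRP fed libraries and at 361 to 1092 CPM in AGRP FD libraries, with a median of 615. AGRP FD replicate 6 lay within the fed range and the other 5 lay above it (log2 fold change 0.82 ± 0.20, edgeR q = 0.00659). In TPM, FD values of 748 and 780 also fell within the fed range of 461 to 809. Srsf7, an SR protein with a zinc knuckle that also takes part in mRNA export, was at 131, 129, 106, 134.5 and 148 CPM in AGRP fed libraries. Its 6 AGRP FD libraries ran from 150.2 to 291 CPM with a median of 197, all above the fed libraries (log2 fold change 0.70 ± 0.19, edgeR q = 0.0134). In TPM the groups overlapped, at 221 to 349 in AGRP FD and 166 to 226 in AGRP fed libraries. In POMC neurons the fitted changes were -0.11 for Srsf2 and -0.48 for Srsf7 and neither passed the test (edgeR q for Srsf7 = 0.28). The other 9 SR genes did not pass in AGRP neurons, with log2 fold changes of -0.40 to 0.51, of which 8 were positive. The summed level of the 11 SR genes was 3010 to 3573 TPM in AGRP FD and 2416 to 2938 TPM in AGRP fed libraries, with no overlap, and 2037 to 2464 TPM over both POMC groups. The sum averaged 3194 TPM in AGRP FD and 2714 TPM in AGRP fed libraries, of which Srsf2 made up 975 and 662 TPM. Without Srsf2, the sums of AGRP FD and AGRP fed libraries overlapped.

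Of the hnRNPs, Hnrnpab, which also acts in mRNA transport in neurons, was at 159.6, 158.6, 141, 148 and 141.3 CPM in AGRP fed libraries. Its AGRP FD libraries were at 186 to 375 CPM with a median of 263, all above the fed ones (log2 fold change 0.82 ± 0.17, edgeR q = 0.0016). Hnrnpdl, a relative of hnRNP D, was at 228, 168, 207, 133 and 159 CPM in AGRP fed libraries and at 248 to 347 CPM in AGRP FD libraries, with a median of 263 and again no overlap (log2 fold change 0.63 ± 0.16, edgeR q = 0.00932). In TPM the groups overlapped for Hnrnpab (202 to 344 in FD, 177 to 211 in fed) and for Hnrnpdl (250 to 376 in FD, 172 to 304 in fed). The other 18 hnRNP genes did not pass the test, with log2 fold changes of -0.44 to 0.68, of which 15 were positive. Nearest to the threshold was Hnrnpm at a q-value of 0.0563 by edgeR. The summed level of the 20 hnRNP genes overlapped, at 3167 to 5084 TPM in AGRP FD and 3389 to 4823 TPM in AGRP fed libraries. Its mean was no higher in FD, at 3974 TPM against 3998 TPM in fed libraries, so the positive signs above hold for TMM-scaled values.

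Rbfox1, a regulator of neuronal exons, was at 33.6, 43.6, 46.0, 52.1 and 53.3 CPM in AGRP fed libraries. It was at 8.36 to 31.3 CPM in AGRP FD libraries with a median of 23.6, so all 6 lay below every fed library. The log2 fold change was -1.09 ± 0.26 (edgeR q = 0.00529), from a mean of 45.7 ± 7.87 to 21.4 ± 8.93 CPM. The other 7 Rbfox, Nova and Ptbp genes did not pass, with log2 fold changes of -0.33 to 0.74. The highest of these was that of Ptbp1, the PTB protein of non-neuronal cells and progenitors, with an edgeR q of 0.0912.

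**Figure D2:**
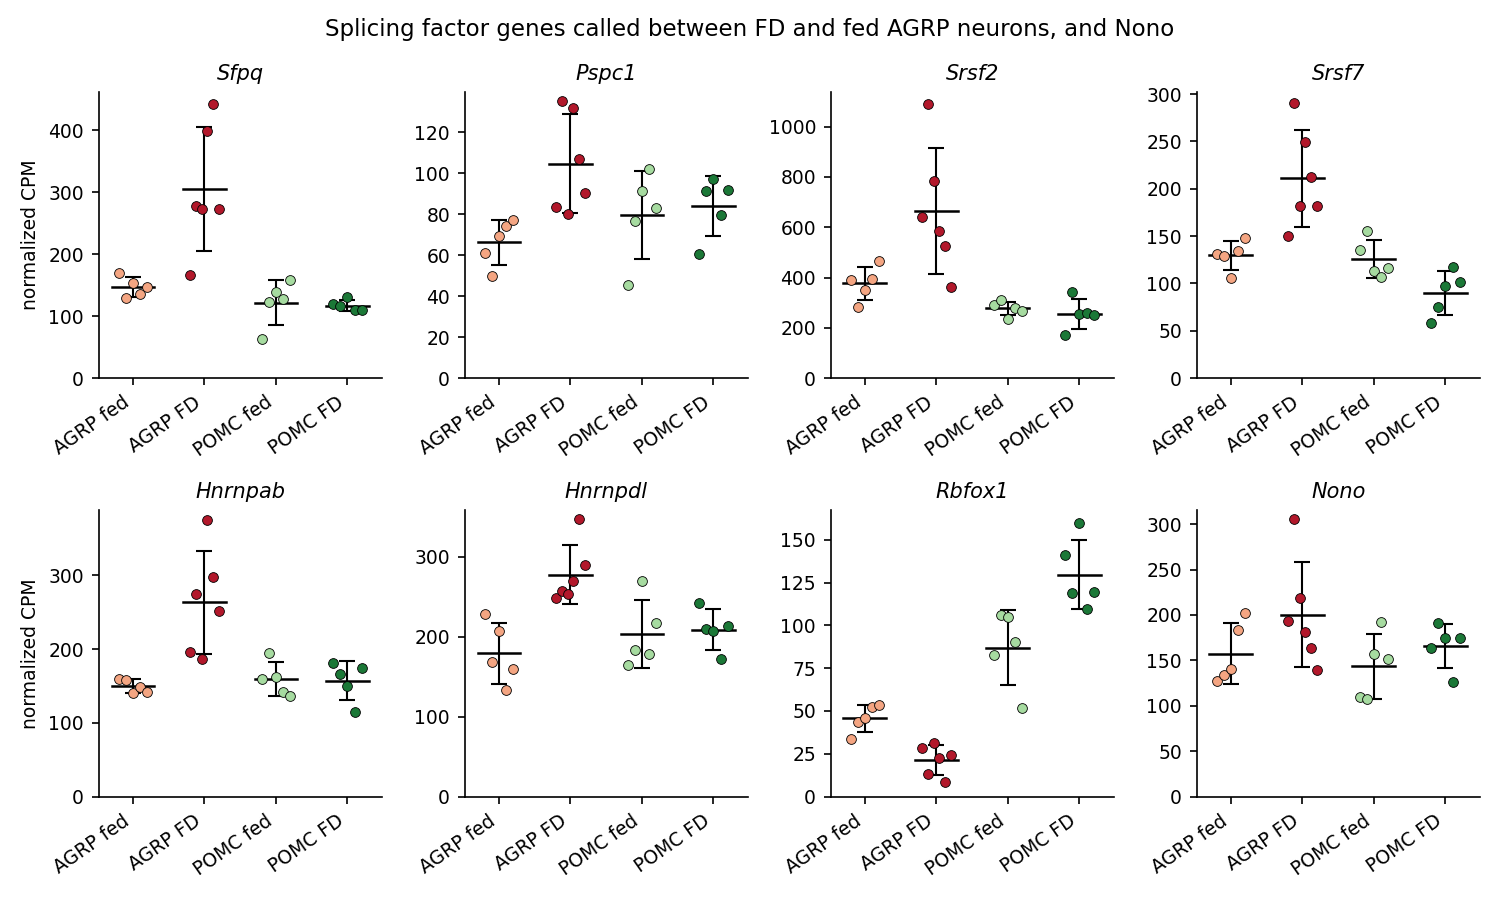
Normalized CPM of the 7 genes called between AGRP FD and fed neurons, and of Nono, with 1 point per library and the group mean ± SD as lines. Red FD points lie above the fed points for Pspc1, Srsf7, Hnrnpab and Hnrnpdl, 1 FD point falls in the fed range for Sfpq and Srsf2, and Rbfox1 falls in AGRP FD while its POMC FD points, with TMM scaling, lie above those of POMC fed.

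Libraries fell in sets by the ERCC spike-in RNA added, which was 1 µl, 10 µl or an amount scaled to the number of sorted cells (per cell). The 10 µl set held no POMC fed library and the per-cell set no POMC FD library. A model with these sets as a block called 10 of the 42 genes higher in AGRP FD than AGRP fed neurons. Over all 16513 tested genes this model called 1861 in either direction, against 1700 without the block. Of the 42 genes, it called 6 higher with AGRP FD replicate 2, whose labels allow 2 of the sets, moved to the other set. When libraries were instead scaled by spike-in RNA per sorted cell, none of the 42 genes was called by edgeR in AGRP neurons, 0 had an unadjusted p under 0.05 (97 of all genes were called), 27 of the 42 fitted changes were positive, and Sfpq had a log2 fold change of 0.78 ± 0.76 and Rbfox1 of -0.97 ± 0.77.

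In POMC neurons 0 of the 42 genes were called higher and 0 lower with food deprivation by edgeR, where 0.182% and 0.194% of all tested genes were. At an unadjusted p under 0.05 there were 2 higher and 2 lower, and DESeq2 and limma-voom also called 0. The median log2 fold change was -0.02, as over all genes, with 19 positive and 23 negative, whereas with ERCC scaling 0 of the 42 fitted changes were positive, Rbfox1 included, and the median was -1.09 against -1.12 over all genes. The lowest q-value was 0.213 by edgeR, for Hnrnph2, whose log2 fold change was -0.61 ± 0.22. It was at 48.5, 79.6, 87.5, 89.3 and 101.5 CPM in POMC fed libraries and at 45.8, 51.4, 66.9, 56.6 and 45.8 CPM in POMC FD libraries, which overlap. Rbfox1 was at 82.4, 106, 105, 90.5 and 51.7 CPM in POMC fed libraries and at 141, 119, 159.5, 109.6 and 119.5 CPM in POMC FD libraries. All FD libraries lay above the fed ones, yet the difference did not pass the test (log2 fold change 0.58 ± 0.27, edgeR q = 0.381).

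**Figure D3:**
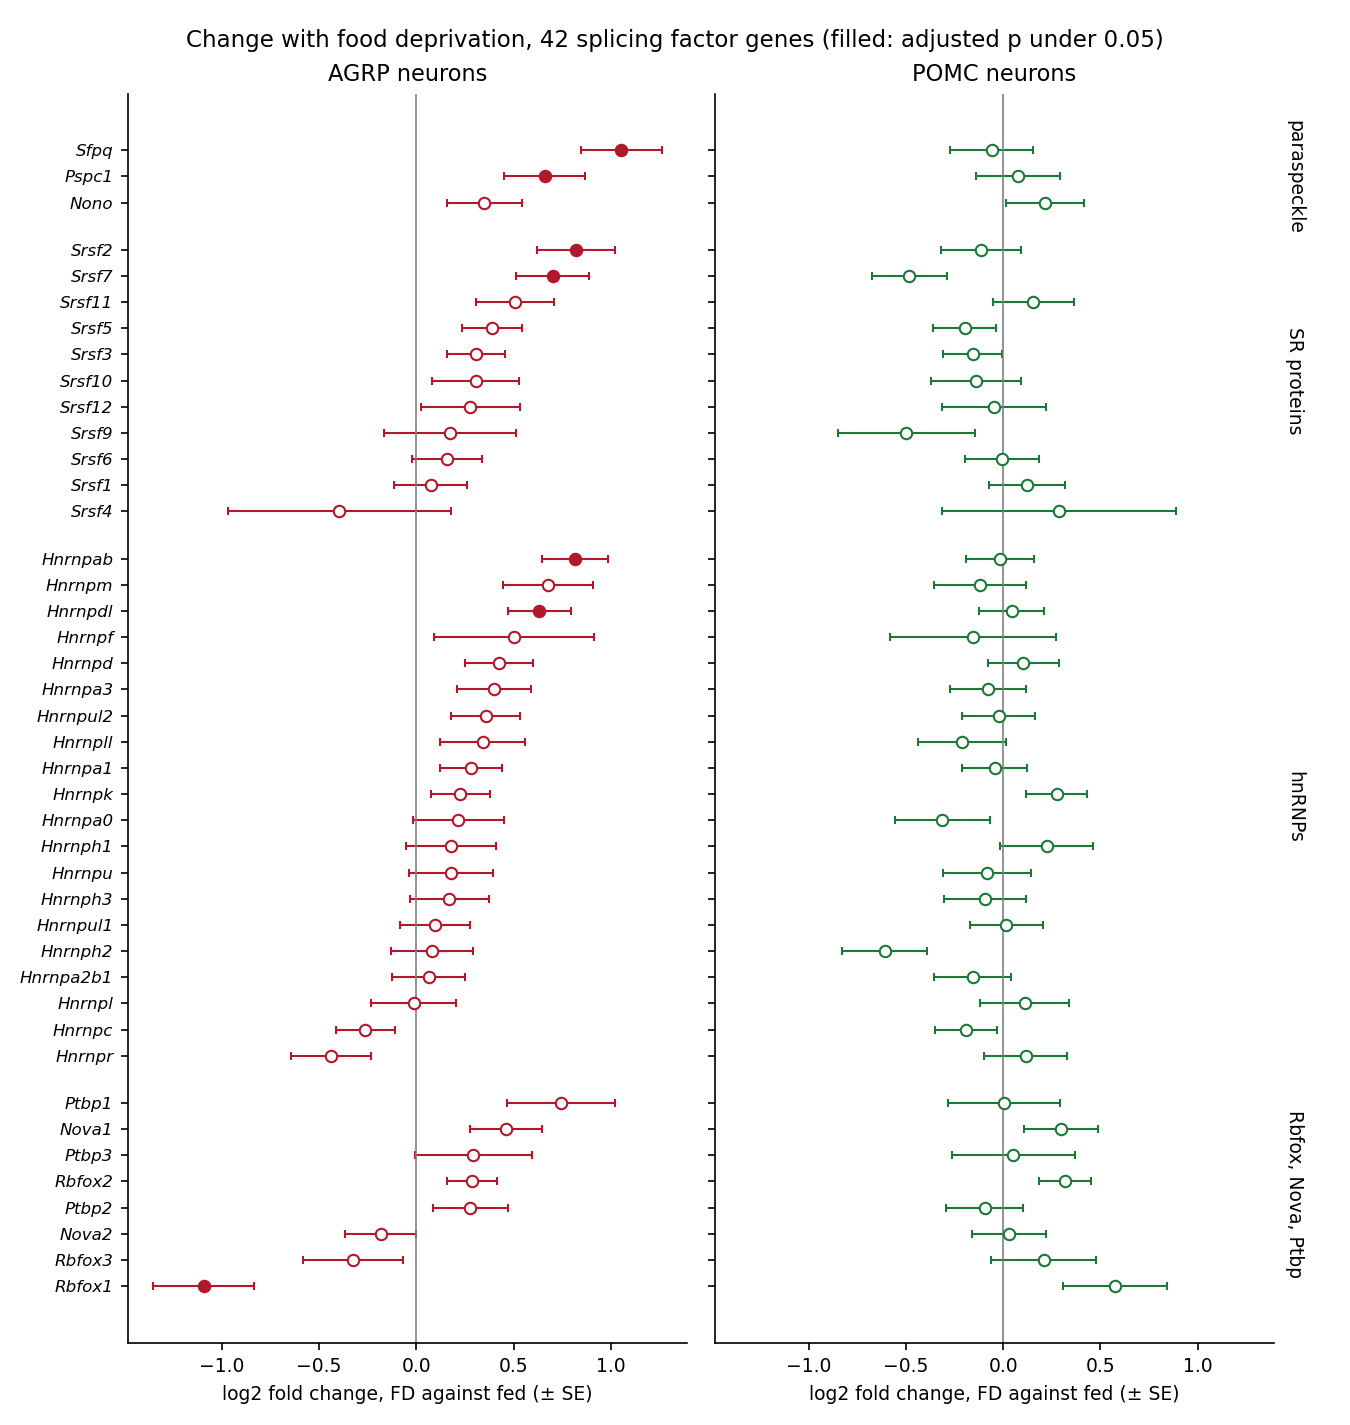
Fitted log2 fold change with food deprivation ± SE for the 42 genes in AGRP neurons (left) and POMC neurons (right), grouped by family, with filled circles at q under 0.05. Of the AGRP circles 7 are filled and of the POMC circles none, and 35 of 42 AGRP values against 19 of 42 POMC values lie above 0 (27 and 0 with ERCC scaling).

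The difference between the 2 changes was tested as an interaction, the AGRP change less the POMC change. At a q-value under 0.05 it was positive for 4.08% and negative for 2.63% of all tested genes. Among the 9793 abundant genes the shares were 6.35% and 3.47%. Of the 42 genes, it was positive for 4 and negative for 1. Srsf7 differed by 1.18 ± 0.27 on the log2 scale (edgeR q = 0.00613), Sfpq by 1.11 ± 0.30 (edgeR q = 0.0196), Srsf2 by 0.94 ± 0.29 (edgeR q = 0.0442) and Hnrnpab by 0.83 ± 0.24 (edgeR q = 0.0338). Rbfox1 differed by -1.67 ± 0.37 (edgeR q = 0.00547). Pspc1, at 0.58 ± 0.30 (edgeR q = 0.277), and Nono, at 0.14 (edgeR q = 0.847), did not pass. The Srsf2 call was lost without any 1 of 14 of the 21 libraries (highest q-value 0.0913) and held without AGRP fed replicate 5, AGRP FD replicates 1, 4, 5 and 6, POMC fed replicate 3 or POMC FD replicate 2. The Hnrnpab call was lost without AGRP fed replicates 3, 4 or 5, AGRP FD replicates 4 or 5, POMC fed replicate 2 or POMC FD replicates 3 or 4 (highest q-value 0.0785), whereas those of Srsf7, Sfpq and Rbfox1 held without each of the 21 libraries. With ERCC scaling edgeR called 0 in either direction, with 1 at an unadjusted p under 0.05.

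A further comparison asked how the 2 neuron types differed in fed mice. Of all tested genes, 3.33% were called higher and 4.24% lower in AGRP than in POMC neurons. Among the 9793 abundant genes the shares were 4.12% and 6.08%. Of the 42 genes, 1 was higher and 3 were lower. All 4 belong to the Rbfox and Nova families, and none of the SR, hnRNP or paraspeckle genes passed (lowest q-value 0.15 by edgeR). The log2 fold changes of the paraspeckle genes were 0.27 for Sfpq, 0.13 for Nono and -0.27 for Pspc1.

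Nova1, a neuronal regulator that binds YCAY motifs, was at 50.3, 46.2, 56.7, 39.1 and 29.5 CPM in AGRP fed libraries and at 162, 116, 186, 162 and 163 CPM in POMC fed libraries. The groups did not overlap (log2 fold change -1.83 ± 0.20, edgeR q = 5.51e-08). Rbfox3, whose protein is the neuronal antigen NeuN, was at 16.4, 34.4, 46.6, 26.0 and 23.3 CPM in AGRP fed libraries and at 48.2, 62.0, 98.3, 98.8 and 87 CPM in POMC fed libraries, again without overlap (log2 fold change -1.43 ± 0.27, edgeR q = 0.000593). In TPM its groups overlapped, at 12.3 to 33.8 in AGRP fed and 26.3 to 66.5 in POMC fed libraries. Rbfox1 was also lower in AGRP neurons, although AGRP fed replicates 4 and 5 lay above POMC fed replicate 5 (log2 fold change -0.93 ± 0.27, edgeR q = 0.0296). That call was lost without AGRP fed replicates 1, 2 or 3 or POMC fed replicates 2 or 3, at a q-value of up to 0.0873. Rbfox2, the most widely expressed of the family, was at 357, 449, 390, 431 and 425 CPM in AGRP fed libraries and at 218, 217, 313, 262 and 242 CPM in POMC fed libraries (log2 fold change 0.71 ± 0.13, edgeR q = 0.000413). DESeq2 and limma-voom called 2 genes higher in place of 1, and with ERCC scaling edgeR called 0 in either direction, with 1 at an unadjusted p under 0.05.

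In FD mice, 9.28% of all tested genes were called higher and 9.27% lower in AGRP than in POMC neurons. Among the 9793 abundant genes the shares were 13% and 11.6%. Of the 42 genes, 9 were higher and 3 lower. The genes called lower were Rbfox1 (log2 fold change -2.60 ± 0.27, edgeR q = 1.3e-08), Rbfox3 (-1.96 ± 0.26, edgeR q = 1.51e-06) and Nova1 (-1.67 ± 0.18, edgeR q = 4.95e-08). Rbfox1 averaged 21.4 ± 8.93 CPM in AGRP FD and 129.7 ± 20.3 CPM in POMC FD neurons. Those called higher included the paraspeckle gene Sfpq (1.38 ± 0.21, edgeR q = 1.1e-05) and the SR genes Srsf2 (1.38 ± 0.20, edgeR q = 6.89e-06), Srsf7 (1.23 ± 0.19, edgeR q = 1.31e-05) and Srsf5 (0.44 ± 0.15, edgeR q = 0.0439). Also higher were the PTB genes Ptbp3 (1.16 ± 0.31, edgeR q = 0.00717) and Ptbp1 (1.03 ± 0.28, edgeR q = 0.00877), the hnRNP genes Hnrnpab (0.75 ± 0.17, edgeR q = 0.0017) and Hnrnph2 (0.73 ± 0.21, edgeR q = 0.0143), and Rbfox2 (0.68 ± 0.13, edgeR q = 0.000218). Pspc1, at 0.32, and Nono, at 0.27, did not pass.

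Srsf2 was at 171, 342, 257, 259.7 and 251.5 CPM in POMC FD libraries, all below the lowest AGRP FD library at 361 CPM. Srsf7 was at 58.3, 75.5, 97.0, 117.5 and 101.3 CPM in POMC FD libraries, again all below the AGRP FD libraries. Ptbp3, which is expressed in several tissues, was at 27.7, 37.8, 36.3, 64.5 and 67.3 CPM in POMC FD libraries and at 68.4 to 197 CPM in AGRP FD libraries, where the median was 82.7. The gap between the 2 groups was small for Ptbp3, and the same held for Ptbp1, at 32.5, 16.5, 28.9, 36.3 and 40.5 CPM in POMC FD and 44.6 to 94.9 CPM in AGRP FD libraries. Hnrnpab was at 181, 166, 149.8, 114 and 175 CPM in POMC FD libraries, below every AGRP FD library. Rbfox3 was at 123.5, 94.5, 89.6, 60.5 and 87.6 CPM in POMC FD libraries and at 17.8 to 30.9 CPM in AGRP FD libraries. Nova1 was at 242, 181, 199.3, 177 and 170.2 CPM in POMC FD libraries and at 48.8 to 75.3 CPM in AGRP FD libraries, so that the lowest POMC value exceeded the highest AGRP value for both genes. Of the 12 genes called, the groups overlapped in normalized CPM for Srsf5 alone. In TPM they overlapped for Srsf2, Hnrnpab, Hnrnph2, Ptbp1, Ptbp3 and Rbfox2 as well. The calls rest on these same libraries, and overlap was not counted over all tested genes.

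The Srsf5 call was lost without AGRP FD replicates 2, 4 or 6 or POMC FD replicates 1, 2 or 4 (highest q-value 0.117), and the Hnrnph2 call without AGRP FD replicate 4 (0.0512). With the spike-in set as a block 17 genes were called higher, or 14 with AGRP FD replicate 2 in the other set, and with ERCC scaling 1 was called higher and 0 lower. The comparisons share libraries with those above and are no independent evidence of them.

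The make-up of the Rbfox and Nova families, as shares of summed TPM, differed between the neuron types. Rbfox2 was 82.7 to 92.3% of the summed Rbfox TPM in AGRP FD libraries, 72 to 80.9% in AGRP fed, 43.6 to 52.2% in POMC fed and 39.5 to 52.3% in POMC FD libraries. The share of Rbfox1 ran in the other order, at 2.66 to 9.21% in AGRP FD, 13.4 to 17% in AGRP fed, 19.7 to 37.8% in POMC fed and 31.4 to 41.1% in POMC FD libraries, where the 2 POMC ranges overlap and the others do not. Nova1 was 29.5 to 46.3% of the summed Nova TPM in AGRP fed and 38.8 to 57.5% in AGRP FD libraries, against 61.8 to 73.2% in POMC fed and 69.1 to 80.1% in POMC FD libraries. Ptbp2 was the most abundant of the Ptb genes in every library, at 50.9 to 79.6% of their sum.

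**Figure D4:**
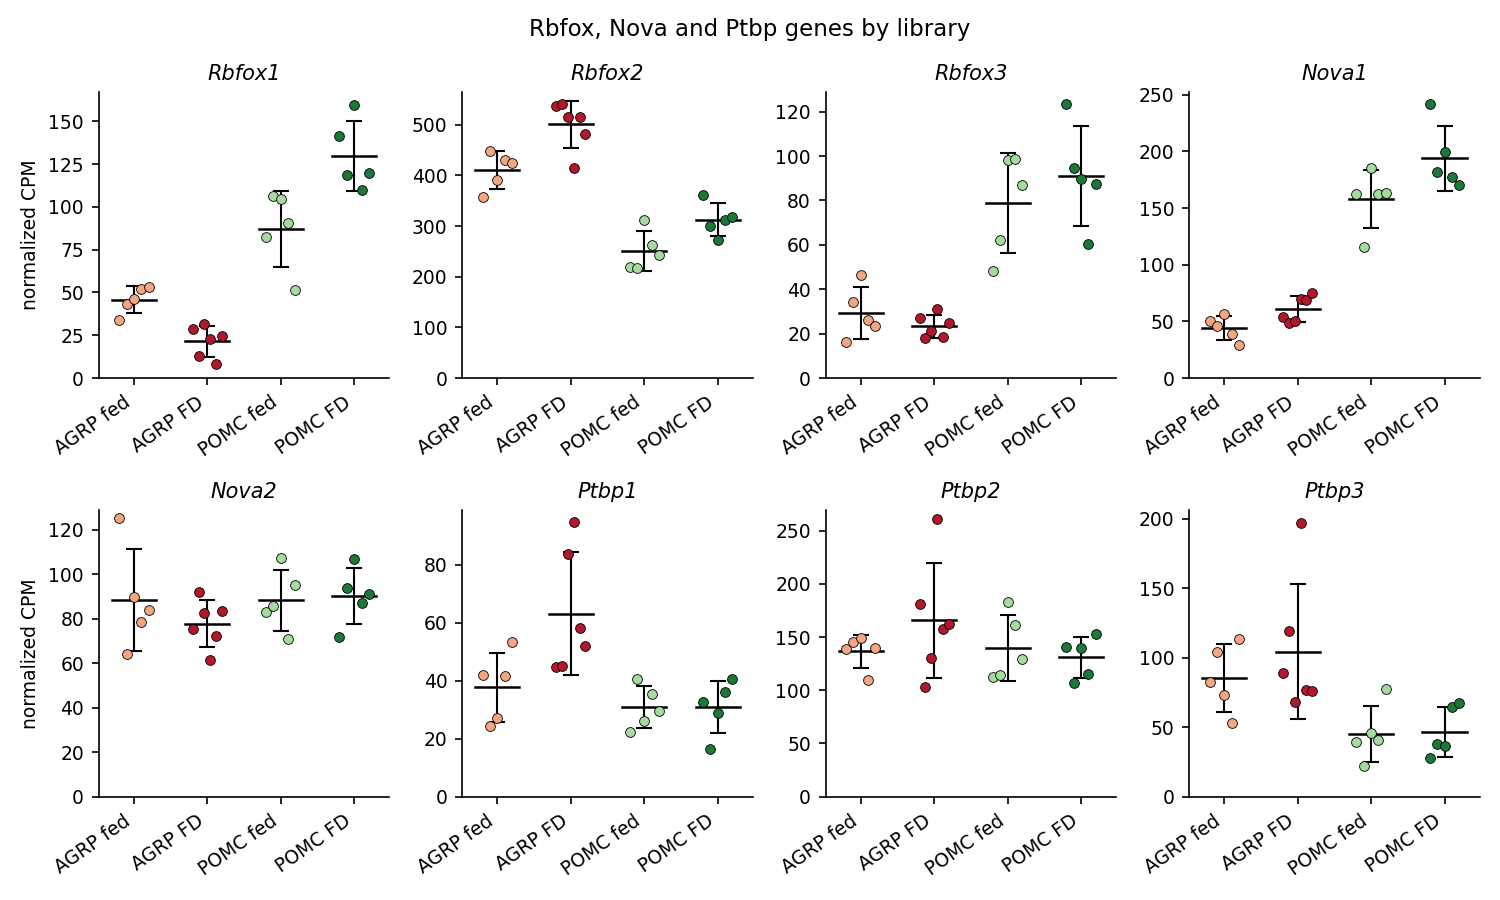
Normalized CPM of the Rbfox, Nova and Ptbp genes in each library, with the group mean ± SD as lines. Rbfox1, Rbfox3 and Nova1 sit lower and Rbfox2 higher in AGRP than in POMC libraries of the same feeding state, apart from POMC fed replicate 5 at 51.7 CPM of Rbfox1, below AGRP fed replicates 4 and 5.

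Other genes of the splicing pathway, in 3 lists that hold none of the 42, are given for AGRP FD against fed neurons, where 5.87% of all tested genes were called higher and 4.43% lower. Of 15 SR protein kinases and cofactors, 1 rose and 0 fell, with a median log2 fold change of 0.18. It was Srrm4, an activator of neuronal microexons (log2 fold change 0.56 ± 0.16, edgeR q = 0.026). Of 32 core spliceosome genes, 1 rose and 0 fell, with a median of 0.23, and it was Sf3b1, the branch-point binding subunit of U2 (1.01 ± 0.16, edgeR q = 7.15e-05).

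Of the 25 tested among 28 other regulators, 2 rose and 3 fell, with a median of 0.06, while Mbnl3, Qki and Esrp1 were not tested. Rbm3, a cold-inducible RNA-binding protein, averaged 108.9 ± 9.48 CPM in FD and 42.6 ± 12.7 CPM in fed AGRP neurons (log2 fold change 1.35 ± 0.20, edgeR q = 3.81e-05), and Syncrip, which is related to hnRNP R, rose by 0.62 ± 0.19 (edgeR q = 0.0361). Those lower were Elavl4 and Elavl2, neuronal proteins that bind A/U-rich RNA (-0.61 ± 0.14, edgeR q = 0.0054, and -0.71 ± 0.23, edgeR q = 0.0414), and Khdrbs3, a STAR family regulator (-0.93 ± 0.27, edgeR q = 0.0243). The calls of Srrm4, Syncrip, Elavl2 and Khdrbs3 each depended on single libraries, and with ERCC scaling none of the 7 genes named from the lists was called (edgeR q of 0.914 for Rbm3 and 1 for the others). That of Srrm4 was lost without AGRP fed replicates 1, 3 or 4 or AGRP FD replicates 2, 3 or 5 (highest q-value 0.0832), and that of Syncrip without AGRP fed replicates 1 to 4 or AGRP FD replicates 2, 4, 5 or 6 (0.102). The call of Elavl2 was lost without AGRP fed replicates 1 to 4 or AGRP FD replicates 1, 3, 5 or 6 (0.126) and that of Khdrbs3 without AGRP fed replicates 1 or 5 or AGRP FD replicates 4 or 6 (0.072). In POMC neurons 0 genes of the 3 lists were called by edgeR. At an unadjusted p under 0.05, 1 of the 15 kinases and cofactors was higher and 1 lower, 2 of the 32 core spliceosome genes were higher and 4 lower, and 2 of the 25 other regulators were higher and 1 lower.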

How the data were processed

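The authors trimmed reads with cutadapt 1.7.1, used Bowtie2 2.1.0 to take out reads from ribosomal RNA, mitochondria, phiX and low-complexity sequence, aligned the rest to mm10 with STAR 2.4.0i and counted uniquely mapped reads per gene with HTSeq 0.6.1p1, ignoring strand. The deposited counts are raw reads per gene without molecular identifiers, and amplified copies are counted, so floors cover counting error only. The authors made the deposited TPM by dividing counts by summed exon length and scaling each library to a constant total.

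Here the 92 ERCC rows and 5 summary rows were set aside, and no other per-sample columns were present. Groups came from the sample titles. One edgeR 4.0.16 (R 4.3.3) quasi-likelihood model with TMM scaling was fitted to all 21 libraries and 4 groups over 16513 genes, in place of the limma-voom test of the study's methods, and p-values were adjusted over all of them. SEs were derived from the fitted fold change and its F statistic. Normalized CPM use TMM library sizes. The scripts were checked on simulated counts.

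The genes, lists and tests were chosen with earlier results of these data known. The genes named are Sfpq, Nono and Pspc1 throughout, every one of the 42 at q under 0.05 in a comparison, the 3 most abundant of each family, and up to 3 called genes per pathway list and direction. A further pathway list is not reported here. Hnrnpm, Ptbp1 and Hnrnph2 (in POMC neurons), Rbfox1 in POMC neurons, Srsf2 and Srsf7 in POMC neurons, the lowest levels and the E-box, AP-1 and exon-overlap genes were named after their values were seen. Exon overlap came from GENCODE M21 on the same build. The same-numbered libraries came from different mice. Alternatives were limma-voom (limma 3.58.1), DESeq2 1.42.0, fits to the compared groups alone, RLE normalization, omission of the count filter, a spike-in set block, a replicate block, ERCC scaling and leaving out each library. One was added after seeing the data, with AGRP FD replicate 2 in another spike-in set.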

Additional observations from a re-analysis of the deposited data

Results flagged for a closer look

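The change with food deprivation differed between AGRP and POMC neurons for 5 of the 42 genes by the edgeR interaction test: Srsf7 by 1.18, Sfpq by 1.11, Srsf2 by 0.94, Hnrnpab by 0.83 and Rbfox1 by -1.67 on the log2 scale, AGRP less POMC. Of all tested genes 4.08% were positive and 2.63% negative, and of the abundant genes 6.35% and 3.47%. The Srsf2 and Hnrnpab calls were lost without certain single libraries, and with ERCC scaling none of the 42 genes was called.

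Single libraries stood apart from the rest of their group by Dixon's test in 6 of the 168 groups of values examined (42 genes in 4 groups), where chance gives about 1 in 20. Hnrnpd was at 201 CPM in AGRP fed replicate 5, with 324 CPM in the nearest library. Hnrnpf was at 4.1 CPM in POMC FD replicate 3 against 7.76 CPM. Ptbp2 was at 110 CPM in AGRP fed replicate 4 against 139 CPM. Srsf10 was at 69 CPM in POMC fed replicate 1 against 110 CPM. Srsf11 was at 268 CPM in POMC FD replicate 1 against 150 CPM. Srsf12 was at 142 CPM in AGRP FD replicate 3 against 75.4 CPM. None of these 6 genes was called in any comparison.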

How the results depend on the processing

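Counts of genes called kept within 1.5 times the reported ones under RLE normalization, no count filter and the compared groups alone. DESeq2 and limma-voom each called 2 genes higher in AGRP fed than POMC fed neurons. The spike-in set block called 10 genes higher in AGRP FD than AGRP fed and 17 higher in AGRP FD than POMC FD neurons. AGRP FD replicate 2 could belong to the per-cell or the 1 µl spike-in set. With it in the 1 µl set, an alternative chosen after seeing the data, these counts were 6 and 14, the Srsf2 interaction had a q-value of 0.122 and Pspc1 in AGRP FD against fed one of 0.0584. ERCC scaling called 0 higher and 0 lower in AGRP FD against fed, 0 and 0 in AGRP against POMC fed, 1 and 0 in AGRP against POMC FD and 0 and 0 in the interaction, and over all genes it moved the median log2 fold change to -1.115 in POMC FD against fed, 1.1 in AGRP against POMC FD and 1.042 in the interaction. AGRP fed replicate 5 and AGRP FD replicate 3 received a different ERCC mix from the rest. Gene counts relative to this spike-in scale were 0.38 to 0.562 in libraries given 10 µl of spike-in RNA and 1.03 to 6.11 in the others. POMC FD replicates 4 and 5 were given 10 µl, and no POMC fed library was. The part of the spike-in sets in these shifts was not tested. Without single libraries, the interaction called 2 to 4 genes positive, and 1 to 2 genes were higher in AGRP fed than POMC fed neurons.

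ERCC scaling turned all 19 positive fitted changes in POMC FD against fed negative and left 27 of 42 positive in AGRP FD against fed, where 35 had been. Of Sfpq, Nono, Pspc1 and the genes called in a comparison, those that changed sign in it under any alternative had not passed the test there. They were the Nono interaction (-0.0334 with the spike-in set block, -0.0296 with AGRP FD replicate 2 in the other set, -0.0241 to 0.2417 without single libraries), Nono and Pspc1 in POMC FD against fed (-0.6973 and -0.8888 with ERCC scaling), Pspc1 in AGRP against POMC fed (0.0643 with ERCC scaling), and, without single libraries, Pspc1 (-0.0708 to 0.181) and Sfpq (-0.2243 to 0.0497) in POMC FD against fed. The causes were not tested.

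The Srsf2 interaction had a q-value of 0.0527 by limma-voom, 0.0538 with RLE normalization and 0.154 with the spike-in set block, and Khdrbs3 one of 0.0792 by limma-voom. Without the count filter the q-values were 0.0506 for Pspc1, 0.0504 for Syncrip and 0.0551 for Elavl2 in AGRP FD against fed and 0.066 for Srsf5 in FD mice, and with the compared groups alone 0.112 for Khdrbs3 and 0.0572 for Syncrip. Same-numbered libraries did not deviate together (correlations of -0.073 to 0.046). With a replicate block, 7 genes were higher and 1 lower in AGRP FD against fed, 8 and 3 in AGRP against POMC FD, and 3 and 1 in the interaction, and calls were lost for Rbfox1 in fed mice (0.0501), Srsf5 in FD mice (0.134), the Hnrnpab interaction (0.0661) and Syncrip (0.0886). The depth limits Srsf4 and Hnrnpf most, the least abundant of the 42.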
